A study of Mus musculus with 8 samples.

Results

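This account follows the route by which a mammary secretory cell turns blood glucose into lactose, in 8 genes: Slc2a1, Hk1, Hk2, Ugp2, Galk1, Galt, Slc35a2 and B4galt1. For each gene the array probe set that carries its symbol in the platform annotation was taken. That gave 1 probe set for each of 7 members among 19505 named genes. No named probe set was found for Galk1, which encodes the galactokinase of the pathway and is not analysed here. The samples were luminal cells, the milk-making inner layer of the mouse mammary epithelium, sorted by flow cytometry from digested glands on day 15 of pregnancy. Expression was measured on Affymetrix arrays, 4 with control cells and 4 with a3a6KO cells, in which the integrin chains alpha 3 (Itga3) and alpha 6 (Itga6) are the named targets, and the series design calls the 4 samples of a group biological replicates. The deleted exons, the Cre driver, the strain and the genotype of the control mice stand neither in the labels nor in the design text. The a3a6KO samples were grouped by their subtype label and source name, since their titles also carry the word Ctrl.

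Lactose is the main sugar of milk and draws water into it by osmosis. Glucose enters the luminal cell through facilitative transporters, is phosphorylated by hexokinases and is activated to UDP-glucose, from which UDP-galactose is made. UDP-galactose is carried into the Golgi, where a galactosyltransferase and alpha-lactalbumin, together called lactose synthase, join its galactose to free glucose. B4galt1 is the catalytic chain and also works on glycoproteins in many tissues, whereas Lalba, the gene of alpha-lactalbumin, is expressed in the secretory mammary epithelium, and its product changes the acceptor of the enzyme to glucose.

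The upstream sequences of B4galt1, Lalba and Slc2a1 are shown because the first pair encodes the 2 chains of lactose synthase and had the 2 lowest limma p-values among the genes drawn in the plot of group differences, while Slc2a1 differed least among the members. Each is the 250 bases before the gene start in RefSeq (GRCm38.p6), 5′ to 3′ in the direction of the gene, and the start used in these cells was not measured. Capitals mark the GC box GGGCGG, the Stat-type motif TTCNNNGAA and the E-box CACGTG, each searched on both strands. No marked motifs overlap.
B4galt1 (chr4:40853985-40854234, minus strand): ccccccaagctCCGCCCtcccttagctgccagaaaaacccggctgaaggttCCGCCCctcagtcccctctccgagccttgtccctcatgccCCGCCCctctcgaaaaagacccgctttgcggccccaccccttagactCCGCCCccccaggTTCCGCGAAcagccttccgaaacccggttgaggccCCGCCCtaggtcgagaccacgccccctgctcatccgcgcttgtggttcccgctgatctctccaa
Lalba (chr15:98482684-98482933, minus strand): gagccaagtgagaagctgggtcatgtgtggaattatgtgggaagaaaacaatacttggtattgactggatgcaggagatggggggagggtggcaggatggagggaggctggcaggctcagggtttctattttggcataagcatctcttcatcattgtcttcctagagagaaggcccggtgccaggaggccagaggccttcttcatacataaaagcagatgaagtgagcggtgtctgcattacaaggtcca
Slc2a1 (chr4:119108495-119108744, plus strand): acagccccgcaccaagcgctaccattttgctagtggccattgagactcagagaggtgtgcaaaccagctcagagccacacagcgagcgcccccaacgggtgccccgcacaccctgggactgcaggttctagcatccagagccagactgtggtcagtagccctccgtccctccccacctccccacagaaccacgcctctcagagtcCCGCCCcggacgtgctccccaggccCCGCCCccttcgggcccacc

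The B4galt1 window held 5 GC boxes, and 1.93% of all 32851 windows of that length held as many or more. Its GC content was 66.4%, against a median of 52.4% over all windows, and it also held 1 Stat-type motif, which 7.02% of windows had. The Slc2a1 window had the same GC content and 2 GC boxes. The Lalba window, with a GC content of 50.8%, held 0 of the 3 motifs. At least 1 GC box was present in 32.7% of windows and an E-box in 6.02%. All 8 members matched the RefSeq windows, some with more than 1 start, and E-boxes occurred in the windows of Galk1 and of 1 of the Galt starts. A match describes these letters only.

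The means of all 7 measured members were lower in a3a6KO, but by amounts that mostly lay within the spread between arrays. The last enzyme, B4galt1, had the clearest difference at -0.86 on the log2 scale, and the main glucose transporter, Slc2a1, had the least at -0.018. The median of the 7 differences was -0.36, against -0.0025 over all genes. A mean lower in a3a6KO was found for 50.1% of all genes. In the limma fit over all genes, 0 of 7 members passed an adjusted p of 0.05, as did 0% of all genes. At an unadjusted p under 0.05, 1 member, B4galt1, was lower, against 2.73% of all genes. In either direction 1000 genes, or 5.13%, had such a p. The members were proposed with earlier results of these data in view, so these counts describe them and test nothing. The deposited values are log2 intensities after RMA, and all differences are a3a6KO minus control on that scale.

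Not all members were bright enough to measure a fold. Background was set on each array as the value that 95% of intron control sets stayed under, which lay between 6.38 and 6.90. Slc2a1 and B4galt1, both with lower means in a3a6KO (47.1% of genes this bright had one), exceeded it on all 8 arrays, Ugp2 on 7, Galt on 3 and Hk1 on 1. Slc35a2 and Hk2 exceeded it on 0 arrays. For Hk1, Hk2 and Slc35a2 the differences below therefore lie in the range where intron sets read. Galt shares this limit on the arrays where it stayed under background.

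**Figure D1:**
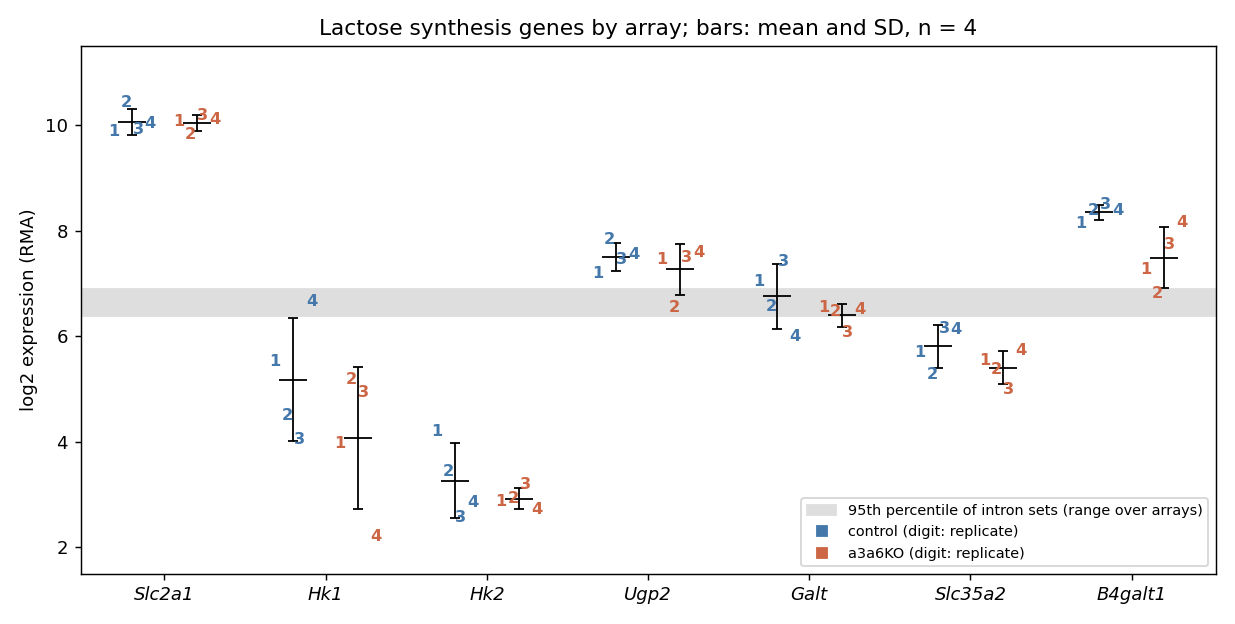
The plot of member levels by array shows log2 expression of the 7 measured genes in pathway order, each digit being 1 replicate, with the mean and SD of each group of 4 and a grey band for the range of the intron 95th percentile over arrays. B4galt1 has its 4 control values between 8.14 and 8.49 and its a3a6KO values spread from 6.81 to 8.15, while the Slc2a1 groups lie on top of each other.

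The transcript of Slc2a1, the glucose uptake gene among the members, showed no difference larger than its error. Uptake itself was not measured. Slc2a1 encodes Glut1, the main facilitative glucose transporter of the mammary epithelium. Control arrays 1 to 4 read 9.87, 10.42, 9.91 and 10.03, and the 4 a3a6KO arrays, in the same order of number, 10.06, 9.82, 10.18 and 10.10. The groups overlapped throughout, with the highest value in control 2 and the lowest in a3a6KO 2. The control mean was 10.06 ± 0.25 and the a3a6KO mean 10.04 ± 0.15 (SD, n = 4), and the limma difference was -0.018 with a 95% interval of -0.42 to 0.39. That interval holds changes of up to 1.34-fold downward and 1.31-fold upward. The sign of so small a value was not fixed: it was positive after array medians were subtracted (0.01) and after a repeated quantile normalization (0.020).

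The hexokinases, which trap glucose in the cell as glucose 6-phosphate, were dim and scattered. Hk1, the widely expressed form, stood at 5.52, 4.49, 4.04 and 6.65 in control and at 3.97, 5.17, 4.94 and 2.20 in a3a6KO. Control 4 was the only array on which it exceeded background, and a3a6KO 4 was the lowest of all, below the median of the intron sets of that array. The difference was -1.10 (SE 0.728, 95% interval -2.75 to 0.54), the largest in size among the members and also the least precise. It was -0.48 without a3a6KO 4 and -0.61 without control 4. Hk2, the insulin-regulated form of muscle and fat, stood at 4.19, 3.44, 2.57 and 2.85 in control and at 2.86, 2.92, 3.19 and 2.72 in a3a6KO. It lay above the intron median on 3 arrays only, and its difference of -0.34 (SE 0.327) was -0.031 without control 1.

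The genes for activation of the sugars differed little on most arrays. Ugp2 encodes the pyrophosphorylase that makes UDP-glucose. It was measured at 7.19, 7.83, 7.46 and 7.55 in control and at 7.45, 6.54, 7.50 and 7.58 in a3a6KO. The values of a3a6KO 1, 3 and 4 thus fell inside the control range and a3a6KO 2 fell below it. Means were 7.51 ± 0.26 and 7.27 ± 0.49 (SD, n = 4), with a difference of -0.24 (SE 0.260) that became 0.0025 without a3a6KO 2. Galt encodes the uridylyltransferase that makes UDP-galactose from UDP-glucose and galactose 1-phosphate. Its control values, 7.04, 6.56, 7.42 and 6.0, spanned all of its a3a6KO values, which were 6.54, 6.47, 6.07 and 6.51. The Galt difference was -0.36 (SE 0.294, 95% interval -1.02 to 0.31), with -0.61 without control 4 and -0.14 without control 3.

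Transport into the Golgi rests on Slc35a2, the UDP-galactose transporter. Its level was 5.69, 5.28, 6.15 and 6.12 in control and 5.54, 5.37, 4.99 and 5.72 in a3a6KO. Only a3a6KO 3 lay below every control array. The difference was -0.41 (SE 0.247, 95% interval -0.96 to 0.15) at a level under background on every array. In the exact permutation test over the 70 assignments of arrays to groups, p was 0.20 for Slc35a2, 0.543 for Ugp2, 0.314 for Galt, 0.314 for Hk1, 0.486 for Hk2 and 0.886 for Slc2a1. This test is two-sided and cannot give a p below 0.0286.

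B4galt1, the galactosyltransferase itself, was lower on 3 of 4 a3a6KO arrays than on any control array. The 4 control arrays read 8.14, 8.38, 8.49 and 8.38 and the 4 a3a6KO arrays 7.26, 6.81, 7.73 and 8.15. The control arrays lay close together, whereas the a3a6KO arrays ran from a3a6KO 2, the lowest, to a3a6KO 4, which lay just above control 1. The control mean was 8.35 ± 0.15 and the a3a6KO mean 7.49 ± 0.58 (SD, n = 4). The limma difference of -0.86 (95% interval -1.48 to -0.24) corresponds to a level 1.82-fold lower, with 1.18-fold to 2.79-fold inside the interval. Its limma p was 0.0118 unadjusted and 0.944 adjusted over all genes, and the exact permutation p was 0.0571. Without each array in turn the difference lay between -1.08 and -0.63, the smallest of these without a3a6KO 2. Among the 1609 genes above background on every array, 0.435% were lower by at least as much, 7 genes with B4galt1 among them.

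**Figure D2:**
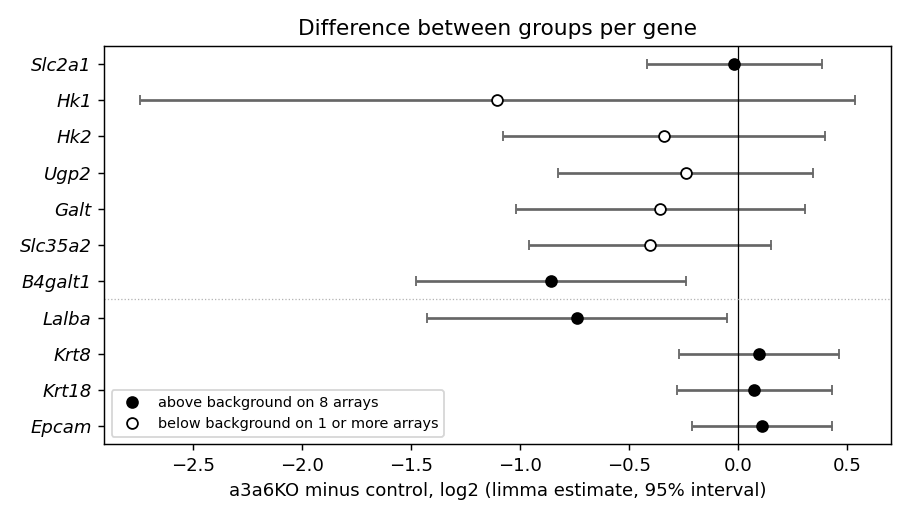
The plot of group differences gives a3a6KO minus control (log2, limma estimate) with its 95% interval for the 7 members, for Lalba and for 3 luminal genes, filled where the gene exceeded background on all 8 arrays. The intervals of B4galt1 and Lalba lie below 0, those of the other 6 members and of Krt8, Krt18 and Epcam include it.

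The partner chain gene Lalba had a difference of like size. It was at 9.26, 9.05, 9.75 and 10.05 in control and at 8.09, 8.72, 9.21 and 9.13 in a3a6KO, with a difference of -0.74 (95% interval -1.43 to -0.050). Its groups overlapped, and a3a6KO 1, not a3a6KO 2, was its lowest array. B4galt1 minus Lalba on the same array averaged -1.18 ± 0.41 over the control arrays and -1.30 ± 0.49 over the a3a6KO arrays (SD, n = 4). The 2 differences thus differed by -0.12 (95% interval -0.91 to 0.67, exact permutation p = 0.743), an interval wide enough to hold a gap of 0.67 in one direction and 0.91 in the other.

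B4galt1 had a lower mean in a3a6KO set against luminal markers or Slc2a1 of the same arrays, whose means did not differ beyond their errors. With all arrays kept, the exact permutation p stayed above 0.05. Against Lalba the difference was only -0.12. Relative to the mean of Krt8, Krt18 and Epcam, which mark luminal epithelium, it was at -2.59, -2.03, -2.04 and -2.16 in control and at -3.45, -3.86, -2.82 and -2.50 in a3a6KO. Only a3a6KO 4 overlapped the control range, through control 1. The difference was -0.95 (95% interval -1.77 to -0.14, exact permutation p = 0.0571). Without single arrays the exact p ran from 0.0286, without the overlapping a3a6KO 4, to 0.114, without control 2, 3 or 4. Relative to Slc2a1, a comparison chosen after the values were seen, B4galt1 was at -1.73, -2.04, -1.42 and -1.65 in control and at -2.80, -3.01, -2.45 and -1.95 in a3a6KO. That difference was -0.84 (95% interval -1.49 to -0.19, exact permutation p = 0.0571), with an exact p of 0.0286 without a3a6KO 4 and of 0.0571 to 0.0857 without any other array. With all 8 arrays, neither the luminal marker nor the Slc2a1 comparison reached 0.05 by the exact permutation test. Both 95% intervals, unadjusted and based on a t distribution, lay below 0. Whether the transcripts of the first and last steps differ is therefore not settled.

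The a3a6KO arrays were uneven in the targeted integrin as well. Itga6 was at 8.83, 8.73, 9.14 and 8.80 in control and at 5.95, 3.65, 8.21 and 7.85 in a3a6KO, and Itga3 had means of 6.42 in control and 5.15 in a3a6KO. The a3a6KO arrays with the lowest Itga6, replicates 2 and 1, were also those with the lowest B4galt1, 6.81 and 7.26. Replicates 3 and 4, with higher Itga6, had the higher B4galt1, 7.73 and 8.15. Between these 2 arrays the order was reversed, with Itga6 at 8.21 on a3a6KO 3 and 7.85 on a3a6KO 4. The array a3a6KO 2 was the lowest for 3 of the 7 measured members, B4galt1, Slc2a1 and Ugp2. With 4 arrays in the group no correlation was computed, and a relation between the genes was not tested. Where the Itga6 probes lie relative to the deletion is not stated.

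**Figure D3:**
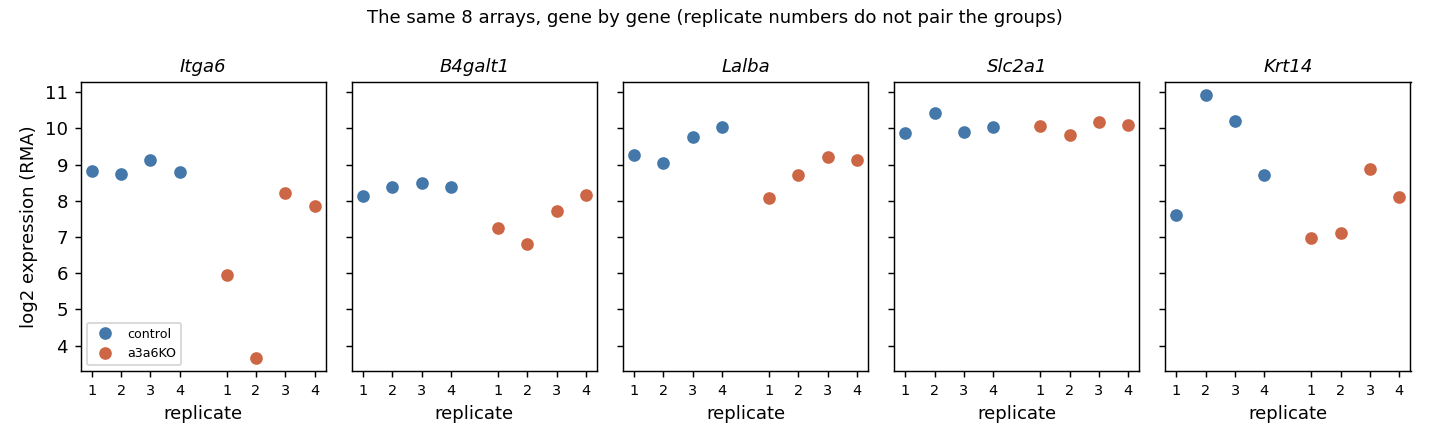
The array-by-array plot shows log2 expression of Itga6, B4galt1, Lalba, Slc2a1 and Krt14 on the same 8 arrays, control in blue and a3a6KO in orange. On a3a6KO 2 both Itga6 (3.65) and B4galt1 (6.81) are at their lowest, Slc2a1 is flat across arrays, and Krt14 spans 6.97 to 10.91.

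Markers of the sorted cells moved with the groups in part. All 7 general luminal markers, among them Krt8, Krt18, Epcam and Cdh1, exceeded background on every array, with differences of 0.075 to 0.24. All 7 secretory markers, which were above background throughout and include Lalba, had lower means in a3a6KO (median -0.30, from -0.74 to -0.07). The whey protein gene Wap differed by -0.58, and the casein genes Csn3 by -0.33, Csn1s1 by -0.24, Csn2 by -0.14 and Csn1s2a by -0.07. Csn1s2a read 12.76 to 12.91, where the highest value of an array lay between 13.20 and 13.28. A lower mean was found for 50.1% of all genes. Of the 7 secretory markers, 2 had an unadjusted p under 0.05 in limma, Lalba and Wap. The groups of Csn1s1 did not overlap (limma unadjusted p = 0.125), which was so for 2.94% of all genes. The summed linear level of the 7 ran from 25778 to 29717 in control and from 20137 to 24296 in a3a6KO. All 11 markers of the outer, contractile layer, the basal or myoepithelial cells, had lower means in a3a6KO, and 4 of them had an unadjusted p under 0.05, against 2.73% of all genes lower with such a p. No marker passed the adjusted threshold in limma. The 11 genes' summed linear level ran from 1164 to 4161 in control and from 708 to 2974 in a3a6KO, and a3a6KO 2 had the lowest. Krt14 and Acta2 exceeded background on every array, Krt5 on 4 and Trp63 on 1. The summed level of 8 endothelial markers was 194 to 921 in control and 150 to 663 in a3a6KO. That of 8 adipocyte markers was 732 to 2910 and 621 to 2586, and a3a6KO 2 was the lowest array in both sums. Of these 8 adipocyte markers 7 were under background on every array, and only Fabp4 (8.94 to 11.42) exceeded it. The adipocyte sum therefore rests mainly on that 1 gene. Of 7 fibroblast markers 5 were lower and 2 higher, the latter being Col1a2 (0.61) and Col3a1 (0.88), both with an unadjusted p under 0.05 and under background on every array. Of 6 leukocyte markers 5 were lower (median -0.26), 5 of the 6 under background on every array. Hormone-sensing luminal markers were 3 lower and 4 higher, and the 2 erythroid markers measured were 1 lower and 1 higher. The part of these markers in the B4galt1 values was not tested. In a mixed sample, fewer cells of a type and less RNA per cell cannot be told apart. Without control 4 and a3a6KO 3, the arrays of highest endothelial sum, B4galt1 differed by -0.93. The basal sums of the remaining arrays then did not overlap, with 1164 to 4088 in control and 708 to 853 in a3a6KO, so that basal marker level and group cannot be told apart there.

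Genes with a pattern like that of B4galt1 were sought among those above background on every array, as the smallest mean absolute difference of gene-centred log2 values over the 8 arrays. The nearest 3 were Egr3, a zinc finger transcription factor gene (0.211), Dcxr, which encodes a dicarbonyl and L-xylulose reductase (0.211), and Mien1 (0.213). The median distance over these genes was 0.525. Mien1 was at 8.71, 8.62, 8.66 and 8.78 in control and at 8.13, 7.69, 8.36 and 8.59 in a3a6KO. Its groups did not overlap, which was so for 2.94% of all genes. All 3 genes were picked for their likeness to B4galt1, so their group differences are no separate result. Among the members and Lalba, Ugp2 was nearest (0.32), then Lalba (0.34) and Slc35a2 (0.378). Hk1 was farthest (1.10).

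Beyond the members, 10 lists of sugar-handling genes were followed, with 101 of 112 genes measured. Means were lower in a3a6KO for 45 of them, higher for 55 and equal for 1, with a median difference of 0.045. In limma 0 of 101 passed the adjusted threshold, and at an unadjusted p under 0.05, 5 were lower and 2 higher, where the background is 2.73% and 2.4% of all genes. Groups did not overlap in 6 of the 101, or 5.94%, against 2.94% of all genes. Each of these 6 was under background on some or all arrays.

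Closest to the route were 10 other genes of lactose synthase and UDP-sugar supply, 5 lower, 4 higher and 1 equal. Besides Lalba, the smallest p belonged to Ugdh, which turns UDP-glucose into UDP-glucuronate. Ugdh was at 4.29, 4.55, 4.81 and 3.46 in control and at 4.85, 5.14, 4.99 and 4.95 in a3a6KO, a difference of 0.70 (SE 0.275) with all a3a6KO values above all control values but under background on every array. Nme1, a nucleoside diphosphate kinase gene that exceeded background throughout, differed by 0.28 (SE 0.162). The other 6 B4galt family genes split evenly, 3 lower and 3 higher, between -0.41 and 0.24, with B4galt2 at -0.38 and 5 of the 6 under background on every array.

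Other transporters of glucose and of nucleotide sugars followed no common direction. Of 13 other genes of the SLC2 and SLC5 transporter families 4 were lower and 9 higher. All 13 were under background on every array, among them the sodium-coupled transporter gene Slc5a1 (-0.67, SE 0.346). Of 15 other SLC35 genes 6 were lower and 9 higher. Slc35f5 was at 7.69, 7.35, 7.20 and 7.56 in control and at 6.81, 6.95, 6.11 and 6.42 in a3a6KO, a difference of -0.88 (SE 0.222) with no overlap and a limma adjusted p of 0.944. It exceeded background on 4 of 4 control arrays and on 2 of 4 a3a6KO arrays. Slc35d1, which carries UDP-glucuronate and UDP-N-acetylgalactosamine into the endoplasmic reticulum, was at 3.03, 2.81, 2.74 and 2.63 in control and at 4.47, 3.43, 4.89 and 3.5 in a3a6KO. Its groups did not overlap either, and its difference of 1.27 (SE 0.327) was measured under background.

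Glycolysis, which draws on the same glucose 6-phosphate, had 7 of 15 genes lower and 8 higher. Tpi1, encoding triose phosphate isomerase, was at 6.59, 6.89, 7.43 and 6.71 in control and at 5.47, 6.17, 5.99 and 6.18 in a3a6KO. All a3a6KO values lay below all control values, and the difference was -0.95 (SE 0.241), with a limma adjusted p of 0.944 and 0 of 4 a3a6KO arrays above background. The phosphofructokinase gene Pfkl differed by -0.41 (SE 0.174) and the phosphoglycerate kinase gene Pgk1 by 0.68 (SE 0.342). Of the 8 arrays, Pfkl exceeded background on 1 and Pgk1 on 4. The bright glycolytic genes Gapdh, Aldoa, Pkm and Aldoc differed by -0.22, -0.24, -0.20 and 0.025.

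The pentose phosphate genes were 3 lower and 3 higher (median -0.048), with Pgls at 0.28, and the glycogen genes 5 and 5 (median -0.023), with Pygl at -0.34. Of 7 other genes listed with hexose phosphorylation, which include amino sugar genes such as Gnpda1 and Gfpt1, 4 were lower and 3 higher, between -0.26 and 0.36. Genes listed as glucose-responsive or as regulators were 5 lower and 7 higher, with the glucose-induced gene Txnip at -0.098 (SE 0.252) and Stat5a at -0.31 (SE 0.330). Of 7 genes for the water and ions that accompany lactose 3 were lower and 4 higher. The phosphate transporter gene Slc34a2 was at 8.08, 6.40, 6.78 and 7.24 in control and at 6.19, 4.20, 5.70 and 6.37 in a3a6KO. Every a3a6KO value lay under every control value, where 2.94% of all genes had groups without overlap. Its difference was -1.51 (SE 0.509, limma adjusted p = 0.944). It exceeded background on 3 of 4 control arrays and on 0 of 4 a3a6KO arrays.

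**Figure D4:**
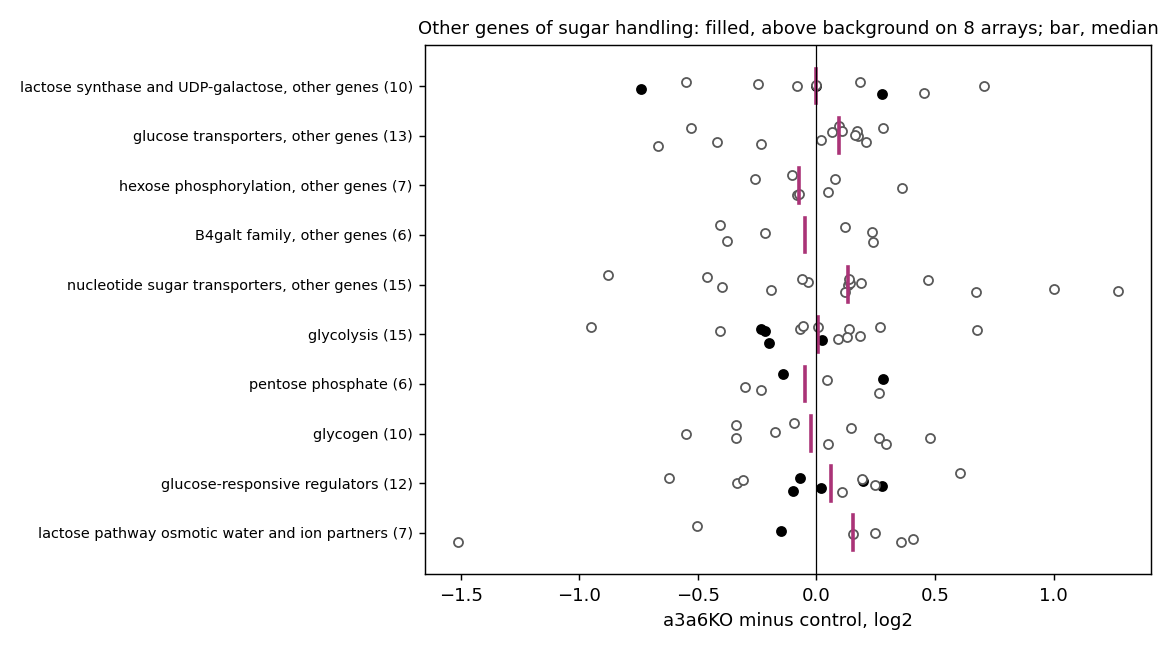
The plot of the 10 lists gives a3a6KO minus control (log2) for each of the 101 other genes, filled where the gene exceeded background on all 8 arrays, with a bar at the median of each list. The medians lie between -0.073 and 0.15, and Lalba is the lowest filled point at -0.74.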

How the data were processed

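The deposited values are log2 intensities, 1 per probe set and array, which the authors made with Affymetrix Expression Console and RMA, per the submitters' processing notes. RMA equalizes the distributions of the arrays, which hides any change common to most genes. Of 28846 probe sets, 19572 had 1 gene symbol in GEO's platform annotation. Where several shared a symbol, the one with the highest mean over the arrays was kept. No genome build is named for the probe sets.

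Values were tested as deposited with limma 3.58.1 in R 4.3.3 (group as the only term, 8 arrays, Benjamini-Hochberg over all genes), a fit tested on simulated data first. Alternatives were a filter on dim genes, other scalings and probe set rules, other limma settings, a replicate block and leaving out arrays. Single differences were compared by exact permutation. Members and gene lists were chosen with earlier results of these data known. Text names the members, up to 3 genes of smallest p per list, set context and marker genes and the 3 nearest patterns. Added outside this rule were Txnip and, chosen after their values were seen, Slc2a1 as a reference and the bright glycolytic genes. Arrays have no depth, and their number limits the precision. No arrays held identical values. The design text states no pairing, and replicate numbers were not used as pairs in the main fit.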

Additional observations from a re-analysis of the deposited data

Results flagged for a closer look

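Of 38 sets of 4 values tested for a sample far from the others, 2 were singled out, and chance alone gives about 1 in 20. Ugp2 was at 6.54 on a3a6KO 2, while the other a3a6KO arrays lay between 7.45 and 7.58. Galt was at 6.07 on a3a6KO 3, while the others lay between 6.47 and 6.54.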

How the results depend on the processing

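No gene was called under any of the 16 other settings of the limma fit, and B4galt1 kept its direction in all of them, with 0 of the tested members called. An unadjusted p under 0.05 was found for 165 genes with dim genes left out and for 929 to 1061 in the other settings. Without single arrays, 5 to 7 of 7 members were lower, with a median of -0.48 to -0.29. With dim genes left out, 3 members could be tested and 3 were lower. Without control 4 and a3a6KO 3, a setting added after the data were seen, the median was -0.50. Slc2a1 turned to 0.01 with array medians subtracted and to 0.020 with quantile normalization repeated, and lay between -0.08 and 0.10 without single arrays. Ugp2 lay between -0.35 and 0.0025. B4galt1 relative to luminal markers lay between -1.17 and -0.72 without single arrays (exact permutation p of 0.125 with the numbers as pairs, the smallest possible there), and relative to Lalba between -0.28 and 0.083. The causes were not tested. With the replicate number as a block, B4galt1 differed by -0.86 (limma adjusted p = 0.942). Same-numbered arrays correlated at -0.061 to 0.039 in their deviations, so the numbers are not taken as pairs. Signal over background limits Hk1, Hk2 and Slc35a2, and also Galt, which exceeded background on 3 of 8 arrays.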
